A study of Mus musculus with 36 samples.

Results

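The genes described here mostly encode subunits of the mitochondrial respiratory chain and of ATP synthase in mouse brain. They were taken from a table of 54532 gene identifiers as the protein-coding genes whose symbols begin with mt-Nd, mt-Co, mt-Cytb, mt-Atp, Ndufa, Ndufb, Ndufc, Ndufs, Ndufv, Uqcr, Cox4 to Cox8 or Atp5, or are Sdha, Sdhb, Sdhc or Sdhd, with a mean of at least 1 CPM (the usual CPM unit, read counts relative to the library total). The prefixes took in 120 symbols. Of these, 13 are not annotated as protein-coding and 5 lay below 1 CPM, among them the mitochondrial gene mt-Atp8 at 0.607 CPM. The remaining 102 genes are 12 encoded by mitochondrial DNA and 90 encoded in the nucleus, and all 102 passed the filter on low counts. The rule uses symbol, gene type and mean level and no difference between groups. It was nevertheless drawn up with earlier results of these data known.

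The respiratory chain passes electrons from NADH through complex I, or from succinate through complex II, to complex III and then to oxygen at complex IV, and the proton gradient it builds drives ATP synthase, called complex V. Mitochondrial DNA encodes core subunits of complexes I, III, IV and V, transcribed as long polycistronic RNAs inside the organelle, while all of complex II and the other subunits are transcribed in the nucleus and imported as proteins. Neurons depend on this pathway for most of their ATP, and mitochondrial injury in axons is a described feature of multiple sclerosis and of its mouse model, experimental autoimmune encephalomyelitis (EAE).

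All mice were wild-type C57BL/6, and whole brain was taken at day 19, at the height of disease. EAE, an autoimmune attack on myelin, was induced with MOG35-55, a myelin peptide, emulsified in complete Freund's adjuvant and injected under the skin, together with pertussis toxin. The 4 groups were naive healthy mice (n = 8), EAE mice left untreated (n = 9), EAE mice given corn oil daily by gavage as vehicle (n = 9), and EAE mice given 100 mg/kg/day of farnesol, an isoprenoid alcohol (trans, trans-farnesol), in the same oil (n = 10). Replicate numbers only name libraries within a group, and the labels give neither the age of the mice nor whether each library came from a separate mouse. The labels describe gavage only for the vehicle and farnesol groups, and naive mice differ from EAE mice by the whole induction procedure, adjuvant and toxin included.

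The libraries held 14705992 to 24211092 counts each. Markers of neurons, astrocytes and oligodendrocytes were abundant in every library. The libraries fell into 2 sets by the ribosomal RNA gene CT010467.1: 21 libraries lay at 1301 to 2816 CPM (set 1: all untreated, all vehicle and 3 farnesol libraries) and 15 at 5157 to 17624 CPM (set 2: all naive and 7 farnesol libraries). Farnesol against naive is therefore the one comparison with naive that can be made inside a set, and for untreated and vehicle mice the set and the disease cannot be told apart. Cerebellar granule cell genes were low in 3 libraries (1 naive, 1 untreated, 1 farnesol), and the gene Sbp exceeded 1 CPM in 5 untreated and 3 vehicle libraries. Named members that lose their call against naive without these libraries are listed below. In whole tissue, fewer cells of a type and less RNA per cell cannot be told apart.

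Levels separated the mitochondrially encoded genes into 2 kinds. Expressed as TMM-scaled CPM (CPM after TMM correction, the edgeR scaling that centres most genes on no change) and divided by kilobases of annotated exon, 7 of the 12 had a median of 3372, from 2327 for mt-Nd5 to 10647 for mt-Co1. The other 5 (mt-Co2, mt-Co3, mt-Atp6, mt-Nd3 and mt-Nd4l) had a median of only 46.5 on that scale, below the median of 48.8 of the nuclear encoded members. These 5 are the genes with a whole copy in a stretch of nuclear chromosome 1 that duplicates mitochondrial DNA: Gm28661, Gm28437, Gm10925, Gm28438 and Gm10222 matched mt-Co2, mt-Co3, mt-Atp6, mt-Nd3 and mt-Nd4l without a mismatch over 681, 783, 678, 342 and 294 aligned bases. The start of mt-Atp6 (chrM, GRCm38, plus strand) and of its copy Gm10925 (chr1:24613974-24614651, minus strand) show why a read from either place cannot be assigned, with no base that differs in the first 60:
mt-Atp6: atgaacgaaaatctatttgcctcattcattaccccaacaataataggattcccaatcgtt
Gm10925: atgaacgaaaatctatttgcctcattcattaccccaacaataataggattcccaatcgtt

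How the counter treated reads with more than 1 match is not stated in the sources used here. The values of these 5 genes may hold only some of their reads and some of the copies', and they are given separately as uncertain. Among the 7 others, mt-Nd4 shares 876 identical bases with Gm28439 and mt-Co1 shares 483 aligned bases with Gm29216, so part of each is affected too. The gene mt-Nd6 lies on the opposite strand to mt-Nd5 and overlaps its end, and without a stated use of strand their reads there cannot be told apart.

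Of the 7 mitochondrially encoded mRNAs without a whole nuclear copy, 6 were called lower than in naive brain in all 3 EAE groups. Among these 6, mt-Nd4 and mt-Co1 have the partial copies described above. The 6 genes mt-Co1, mt-Cytb, mt-Nd1, mt-Nd2, mt-Nd4 and mt-Nd5 fell in each of the 3 comparisons with naive, by 0.22 to 0.35 on the log2 scale. Counting all 12, 9 fell in untreated, 8 in vehicle and 6 in farnesol mice, and 0 rose (edgeR quasi-likelihood test, Benjamini-Hochberg adjusted p below 0.05 over all 18438 genes tested). Over all genes tested, 11.3%, 15.2% and 16.3% were called lower and 13.6%, 16.3% and 17.9% higher in the same 3 comparisons. At an unadjusted p below 0.05, 0 of the 12 were higher and 10, 9 and 7 lower, and DESeq2 and limma-voom likewise called 0 higher. The median log2 difference of the 12 was -0.31, -0.30 and -0.23, beside -0.01, 0.00 and 0.01 for all genes tested. The 3 comparisons share the naive libraries, so a stray naive mean would enter each of them.

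The most abundant transcript was mt-Co1, which encodes the catalytic core of cytochrome c oxidase (complex IV). Its lowest, median and highest levels were 17001, 18218 and 22493 CPM in naive brain, 13649, 15045 and 19018 in untreated, 14289, 15663 and 16713 in vehicle and 14139, 16012 and 17452 in farnesol EAE. Every vehicle library lay below every naive library, while the farnesol group overlapped the naive range at its low end. The highest untreated library, replicate 7, lay above the naive median. It fell by 0.30 ± 0.06 (log2, SE) in untreated mice (adjusted p = 0.00031), by 0.29 ± 0.06 in vehicle mice (adjusted p = 0.00034) and by 0.25 ± 0.06 in farnesol mice (adjusted p = 0.0012), in edgeR's test. In the fitted means mt-Co1 fell by 18.9%, by 18.2% and by 15.9% in the 3 groups.

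The gene mt-Cytb encodes cytochrome b, the only mitochondrially encoded subunit of complex III. It had 7316 ± 683 CPM (SD, n = 8) in naive brain, 5898 ± 819 (n = 9) in untreated, 5902 ± 455 (n = 9) in vehicle and 6188 ± 490 (n = 10) in farnesol EAE. Vehicle libraries, at 5052 to 6405 CPM, did not reach the naive range of 6645 to 8664, and the other EAE groups overlapped it. The log2 falls were 0.31, 0.31 and 0.24, each with an SE of 0.07.

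Among the complex I genes, mt-Nd1, whose protein sits in the membrane arm next to the ubiquinone site, had 5981 ± 659 CPM in naive and 4684 ± 603, 4825 ± 339 and 5015 ± 390 in untreated, vehicle and farnesol EAE. It fell by 0.35, 0.31 and 0.25 (log2, SE 0.07, 0.07 and 0.06). The other membrane arm genes fell by similar amounts: mt-Nd2 by 0.26, 0.24 and 0.22, mt-Nd4 by 0.28, 0.29 and 0.26, and mt-Nd5 by 0.25, 0.24 and 0.22. The light strand gene mt-Nd6 did not pass in any comparison. It had 1465 ± 143 CPM in naive and 1276 ± 179, 1304 ± 123 and 1309 ± 186 in the 3 EAE groups, log2 differences of -0.20, -0.17 and -0.16 with adjusted p of 0.065, 0.11 and 0.11 (edgeR), so a fall of the size seen in the other genes was not resolved from none.

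**Figure D1:**
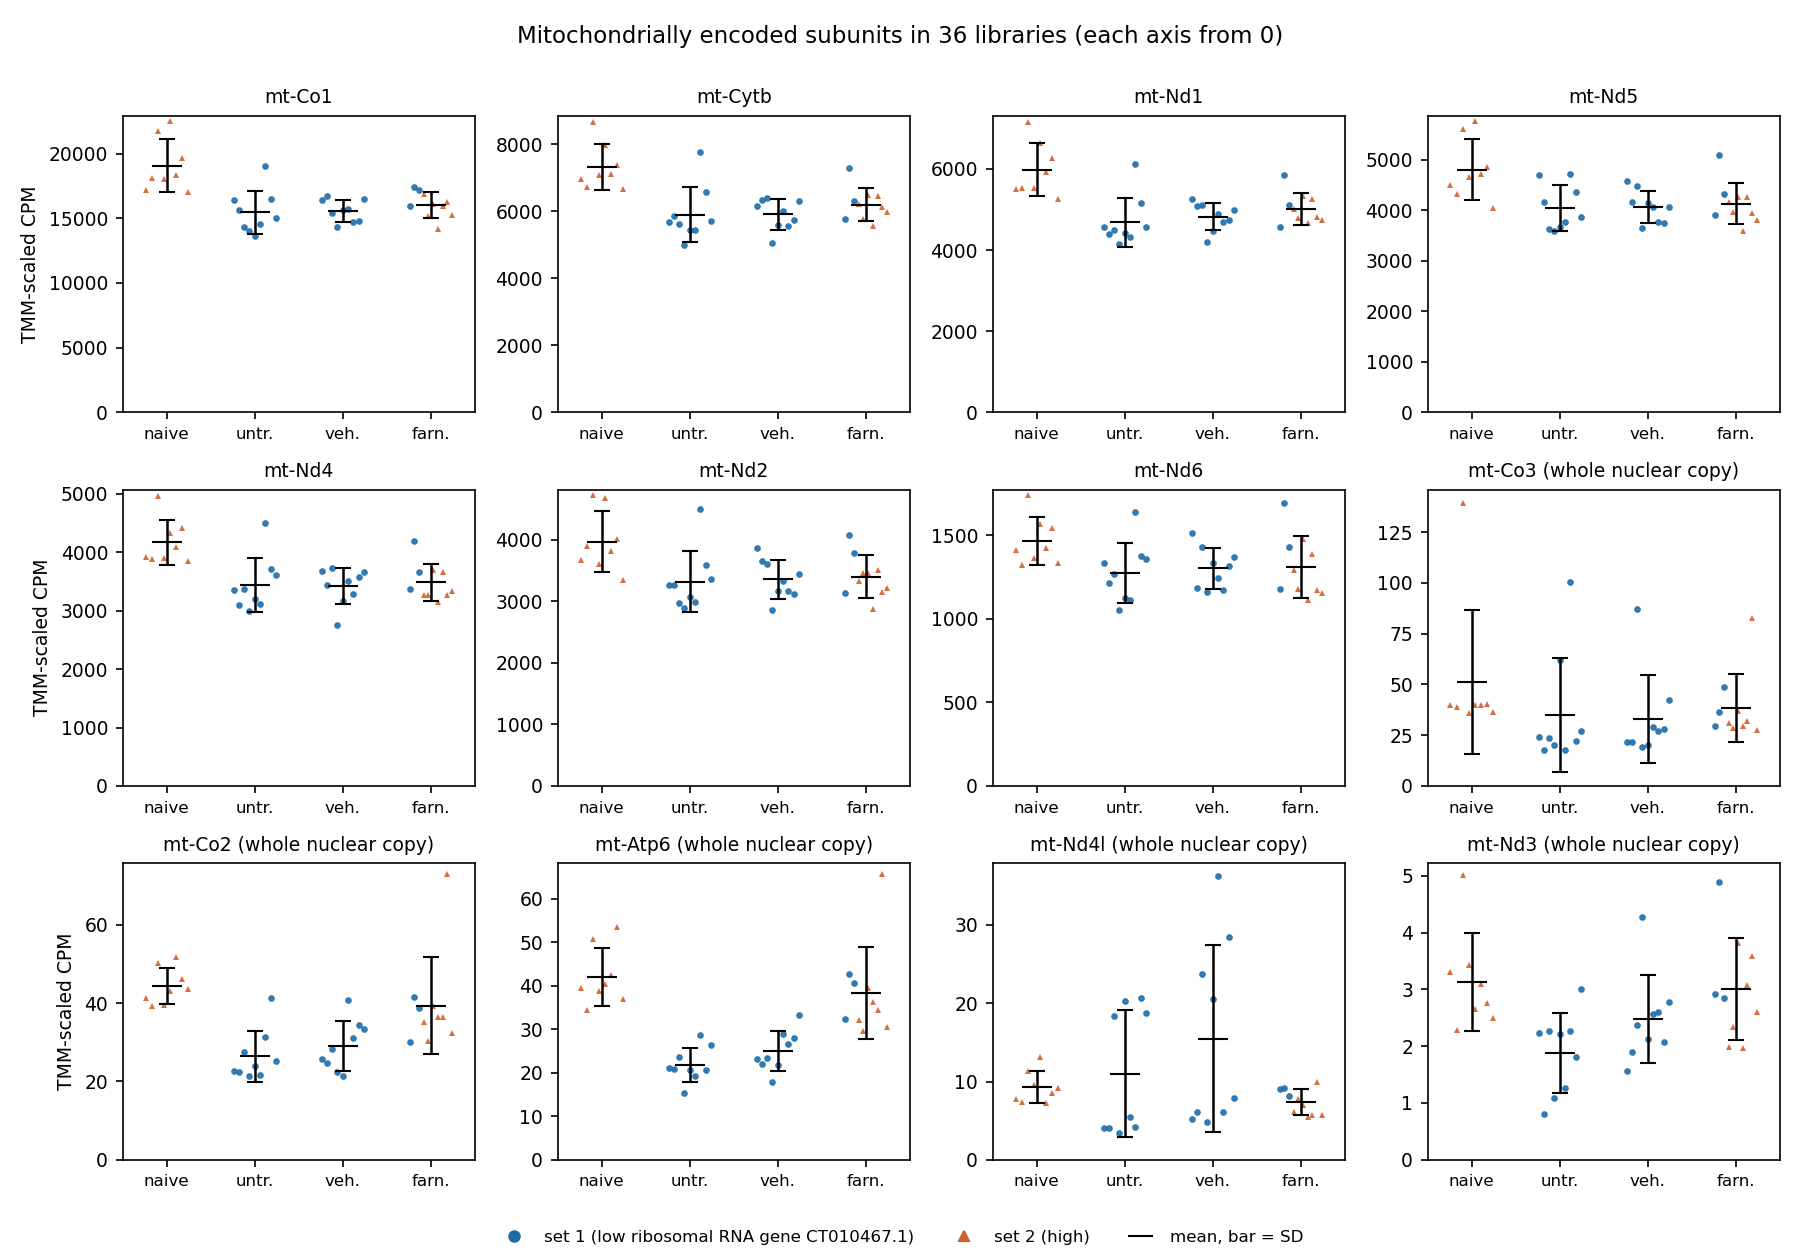
Level of each mitochondrially encoded gene in TMM-scaled CPM (vertical axes, each from 0) in the 36 libraries by group; circles are set 1 and triangles set 2, and black bars show the mean and SD. The 7 genes without a whole nuclear copy have group means of 1276 CPM or more and are highest in naive brain, while the 5 with a copy lie below 140 CPM and scatter more.

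The 5 genes with a whole nuclear copy behaved less evenly. For mt-Atp6, a subunit of the ATP synthase proton channel, naive libraries held 34.4 to 53.4 CPM, untreated libraries 15.2 to 28.7, vehicle libraries 17.8 to 33.4 and farnesol libraries 29.5 to 65.6. The untreated and vehicle ranges did not reach the naive range, and the farnesol range spanned it. The log2 difference from naive was -0.95 ± 0.13 in untreated (adjusted p = 3.2e-06), -0.75 ± 0.13 in vehicle (adjusted p = 4.4e-05) and -0.13 ± 0.13 in farnesol mice (adjusted p = 0.44, edgeR).

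For mt-Co2, which carries the copper centre that accepts electrons from cytochrome c, naive brain held 44.4 ± 4.6 CPM, and untreated, vehicle and farnesol brain 26.4 ± 6.5, 29.2 ± 6.4 and 39.3 ± 12.4. It fell by 0.75 in untreated and by 0.61 in vehicle mice, and the difference in farnesol mice was -0.18 (adjusted p = 0.34, edgeR). The complex I gene mt-Nd3, at 1.88 to 3.13 CPM on average, fell by 0.74 in untreated mice and did not pass in vehicle or farnesol mice, at -0.34 and -0.06. The complex IV gene mt-Co3 and the complex I gene mt-Nd4l did not pass in any comparison with naive. Of the 7 nuclear copies, 4, 3 and 0 fell and 0, 0 and 1 rose in the 3 comparisons. Gm10925 fell by 0.46 and 0.56 in untreated and vehicle mice, with -0.03 in farnesol mice, and Gm28439, the partial copy of mt-Nd4, fell by 0.95 and 0.66, with -0.18. Gm28438, the copy of mt-Nd3, was at 0.08 and 0.18 in untreated and vehicle mice and rose by 0.24 in farnesol mice (adjusted p = 0.042, edgeR), and Gm29216 and Gm28661 passed in none. Adding the counts of the copies to their genes turned the mt-Nd3 difference in untreated mice to 0.042, a reversed sign.

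Mitochondrial ribosomal RNA did not pass the test in EAE. The genes mt-Rnr1 and mt-Rnr2, the small and large rRNAs of the mitochondrial ribosome, lie on the same strand as every member but mt-Nd6. In untreated mice mt-Rnr1 differed from naive by 0.01 ± 0.07 and mt-Rnr2 by -0.06 ± 0.07 (log2, SE), in vehicle mice by -0.08 and -0.12, and in farnesol mice by 0.02 and -0.09, and neither passed in any of the 3 comparisons. The rRNA pair held 0.564 ± 0.043% of counts in naive brain, and 0.579 ± 0.091%, 0.561 ± 0.034% and 0.580 ± 0.055% in untreated, vehicle and farnesol brain. The ratio of mRNA from the 7 mitochondrially encoded genes without a whole nuclear copy to these rRNAs was 7.94 ± 0.54 in naive brain. It was 6.67 ± 0.64, 7.01 ± 0.41 and 6.93 ± 0.34 in the EAE groups, with naive libraries at 7.21 to 9.05 and EAE libraries at 5.31 to 7.72. This ratio needs no scaling between libraries, but the labels do not state how ribosomal RNA was removed. Within set 2 it was 7.94 in naive and 7.04 ± 0.25 in the 7 farnesol libraries.

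The nuclear encoded genes that were called also fell, with smaller medians. Of 90, 26 fell in untreated, 26 in vehicle and 31 in farnesol mice (28.9%, 28.9% and 34.4%), and 0, 0 and 1 rose. Over all genes tested, 11.3%, 15.2% and 16.3% fell. At an unadjusted p below 0.05, 1, 0 and 1 were higher, while DESeq2 called 0, 0 and 1 higher and limma-voom 0. Among all genes with a mean of at least 10 CPM, a level most members exceed, 16.6%, 23.9% and 25.9% fell. The share of the nuclear members was closest to these in vehicle mice, and the excess was not tested. The median log2 difference of the 90 was -0.12, -0.12 and -0.13, and 78, 76 and 77 of them had a negative value. In all, 21 genes fell in each of the 3 comparisons, 5 in 2, 10 in 1 and 54 in none, and the 21 ranged from -0.36 to -0.11.

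**Figure D2:**
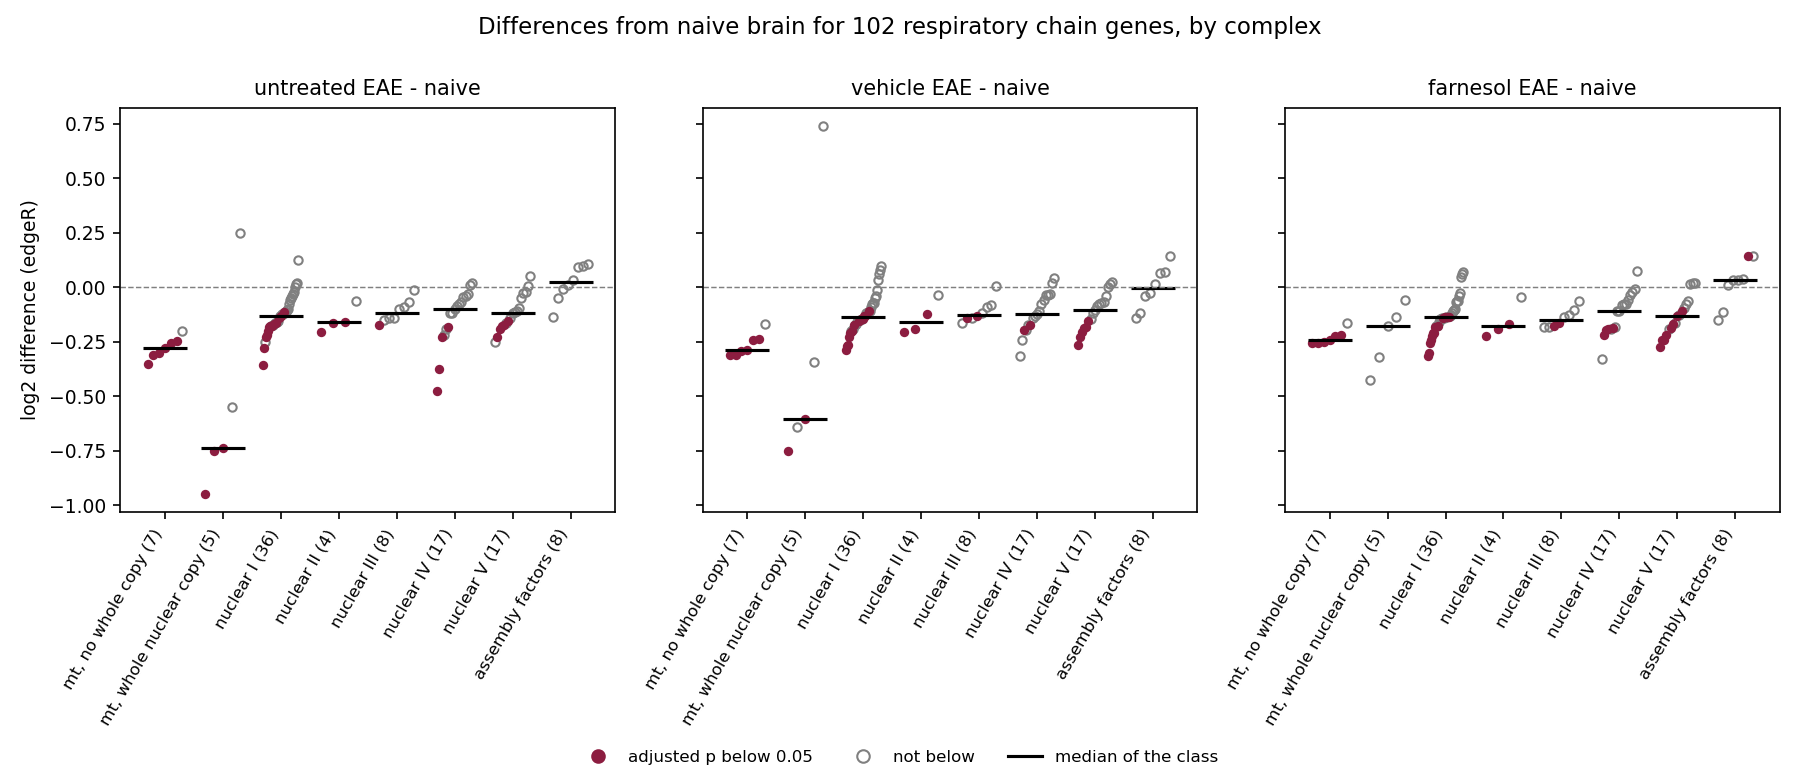
Log2 difference from naive (vertical axis, edgeR) of each of the 102 genes in the 3 EAE groups, one point per gene, by encoding genome and complex with the number of genes in brackets; filled points have an adjusted p below 0.05 and black lines are class medians. Most points lie below 0, and the assembly factors lie around 0. The mitochondrially encoded classes have the lowest medians in untreated and vehicle mice, while in farnesol mice the genes with a whole nuclear copy have a median of -0.18, as nuclear complex II does.

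Complex II, the succinate dehydrogenase shared with the citric acid cycle, is wholly nuclear encoded. In every comparison with naive 3 of its 4 genes fell (75%), where 11.3%, 15.2% and 16.3% of all genes tested did. Sdha, the flavoprotein that oxidises succinate, had 419, 462 and 496 CPM (lowest, median, highest) in naive brain, 365, 406 and 448 in untreated, 375, 403 and 427 in vehicle and 362, 404 and 431 in farnesol EAE. Its ranges overlapped, and it fell by 0.16, 0.19 and 0.19 (SE 0.04 each). Sdhb, the iron-sulfur subunit, had 119 ± 7.1 CPM in naive and 103 ± 6.7, 103 ± 6.8 and 102 ± 4.7 in the EAE groups, falls of 0.20, 0.21 and 0.22. Sdhc, one of the membrane anchors, fell by 0.16, 0.12 and 0.17. The other anchor, Sdhd, did not pass, at -0.06, -0.04 and -0.04.

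Complex I contributed 36 nuclear genes, of which 13, 13 and 14 fell (36.1%, 36.1% and 38.9%) and 0 rose, with medians of -0.13, -0.14 and -0.14. Among all genes with a mean of at least 10 CPM, 16.6%, 23.9% and 25.9% fell. Ndufa10, an accessory subunit, showed the clearest separation: naive libraries lay at 142.4 to 156.2 CPM, above every untreated (124.5 to 140.2), vehicle (123.5 to 142.1) and farnesol library (115.3 to 142.0). It fell by 0.18, 0.21 and 0.21 (SE 0.04 each; adjusted p = 0.00043, 4.4e-05 and 3.7e-05, edgeR). Ndufs1, the largest iron-sulfur subunit of the arm that takes electrons from NADH, had 148 ± 4.7 CPM in naive and 129 ± 7.6, 133 ± 4.5 and 134 ± 9.1 in the EAE groups. It fell by 0.20, 0.15 and 0.14. Ndufa9, at the junction of the arms, fell by 0.22, 0.26 and 0.22.

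Complex III had 1, 2 and 2 of 8 nuclear genes lower (12.5%, 25% and 25%). Among all genes with a mean of at least 10 CPM, 16.6%, 23.9% and 25.9% fell, and nothing is read from the complex III count. Uqcrc2, a core protein of the complex, had 171 ± 7.7 CPM in naive and 152 ± 9.6, 156 ± 8.3 and 153 ± 5.9 in the EAE groups, falls of 0.17, 0.13 and 0.16. Complex V had 5, 6 and 8 of 17 lower (29.4%, 35.3% and 47.1%, beside the same shares of all genes). Atp5o, a stalk subunit outside the rule for named genes and chosen after its values were seen, had 106.4 ± 9.3 CPM in naive and 90.7 ± 6.8, 88.5 ± 11.3 and 87.9 ± 10.1 in the EAE groups, falls of 0.23, 0.27 and 0.28. Atp5a1, the alpha subunit of the catalytic F1 head, had 858, 980 and 1039 CPM in naive and 776, 843 and 890 in untreated, 776, 805 and 889 in vehicle and 737, 812 and 888 in farnesol EAE, and it fell by 0.19, 0.23 and 0.24. Atp5b, the beta subunit, had 1271 ± 72 CPM in naive and 1123 ± 57, 1122 ± 48 and 1094 ± 61 in the EAE groups, falls of 0.18, 0.18 and 0.22.

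Complex IV, counted with Ndufa4, had 4, 2 and 4 of 17 nuclear genes lower (23.5%, 11.8% and 23.5%). Among all genes with a mean of at least 10 CPM, 16.6%, 23.9% and 25.9% fell, and nothing is read from the complex IV count. The subunits of complex IV exist as a common form and forms known from lung, muscle or testis, and the common forms dominated in brain. Per kilobase of exon, Cox4i1 had 279 CPM and Cox4i2 had 2.56, Cox6a1 had 423 and Cox6a2 6.03, Cox6b1 had 203 and Cox6b2 2.11, Cox7a2 had 101 and Cox7a1 3.64, and Ndufa4 had 117 and Ndufa4l2 3.12. Among the common forms, Cox4i1 fell in all 3 comparisons, by 0.18, 0.20 and 0.19, from 478 ± 28 CPM in naive. Cox6a1 fell by 0.17 and 0.19 in vehicle and farnesol mice, and Cox6b1 by 0.23 in untreated mice. Cox5a and Cox5b, the paired matrix-side subunits, fell in farnesol mice by 0.19 and 0.22. Cox6c, Cox7a2, Cox7a2l, Cox7b, Cox8a and Ndufa4 passed in none, between -0.14 and 0.07. The low-level form Cox4i2, whose expression is known to respond to low oxygen, fell in untreated mice by 0.47, from 2.44 ± 0.84 CPM in naive. Naive replicate 3 held 4.28 CPM (next highest 2.87), and the call was lost under 7 of the 13 other settings tried. The low-level form Ndufa4l2 fell in untreated mice by 0.37, from 3.85 ± 0.39 CPM, a call lost under 4 of 14 settings. Neither gene passed in vehicle or farnesol mice. Cox6a2, Cox6b2 and Cox7a1 passed in none.

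The prefix Ndufa also takes in 8 complex I assembly factors, Ndufaf1 to Ndufaf8, which are not subunits. None of the 8 fell in edgeR's test, with 1 lower at an unadjusted p below 0.05 in each comparison, 0 lower in DESeq2 and 0, 0 and 1 lower in limma-voom. Their medians were 0.02, 0.00 and 0.03, and Ndufaf7, a methyltransferase that modifies a complex I subunit, was the single member that rose, from 29.2 ± 2.8 CPM in naive to 32.3 ± 3.0 in farnesol EAE (0.15 ± 0.06, adjusted p = 0.041, edgeR), with overlapping ranges. That call was lost under 8 of the 15 other settings tried.

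The share of counts summarises the contrast between the genomes without a test. Naive libraries held 4.49 ± 0.42% of their counts in the 12 mitochondrially encoded genes, beside 3.83 ± 0.43% for untreated, 3.94 ± 0.24% for vehicle and 4.02 ± 0.30% for farnesol libraries. The 82 nuclear encoded members that remain with the 8 assembly factors left out took 1.03 ± 0.06%, 0.982 ± 0.063%, 0.995 ± 0.073% and 0.975 ± 0.044%. The ratio of the 2, which is free of library scaling, was 4.39 ± 0.55 in naive and 3.92 ± 0.48, 3.98 ± 0.40 and 4.14 ± 0.44 in the EAE groups, with overlapping ranges of 3.78 to 5.40 in naive and 3.28 to 5.03 over EAE. The means were lower in EAE by about 1 SD or less. Within set 2 the ratio was 4.39 in the 8 naive and 3.96 ± 0.30 in the 7 farnesol libraries, and the 3 farnesol libraries of set 1 were at 4.55 ± 0.48.

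**Figure D3:**
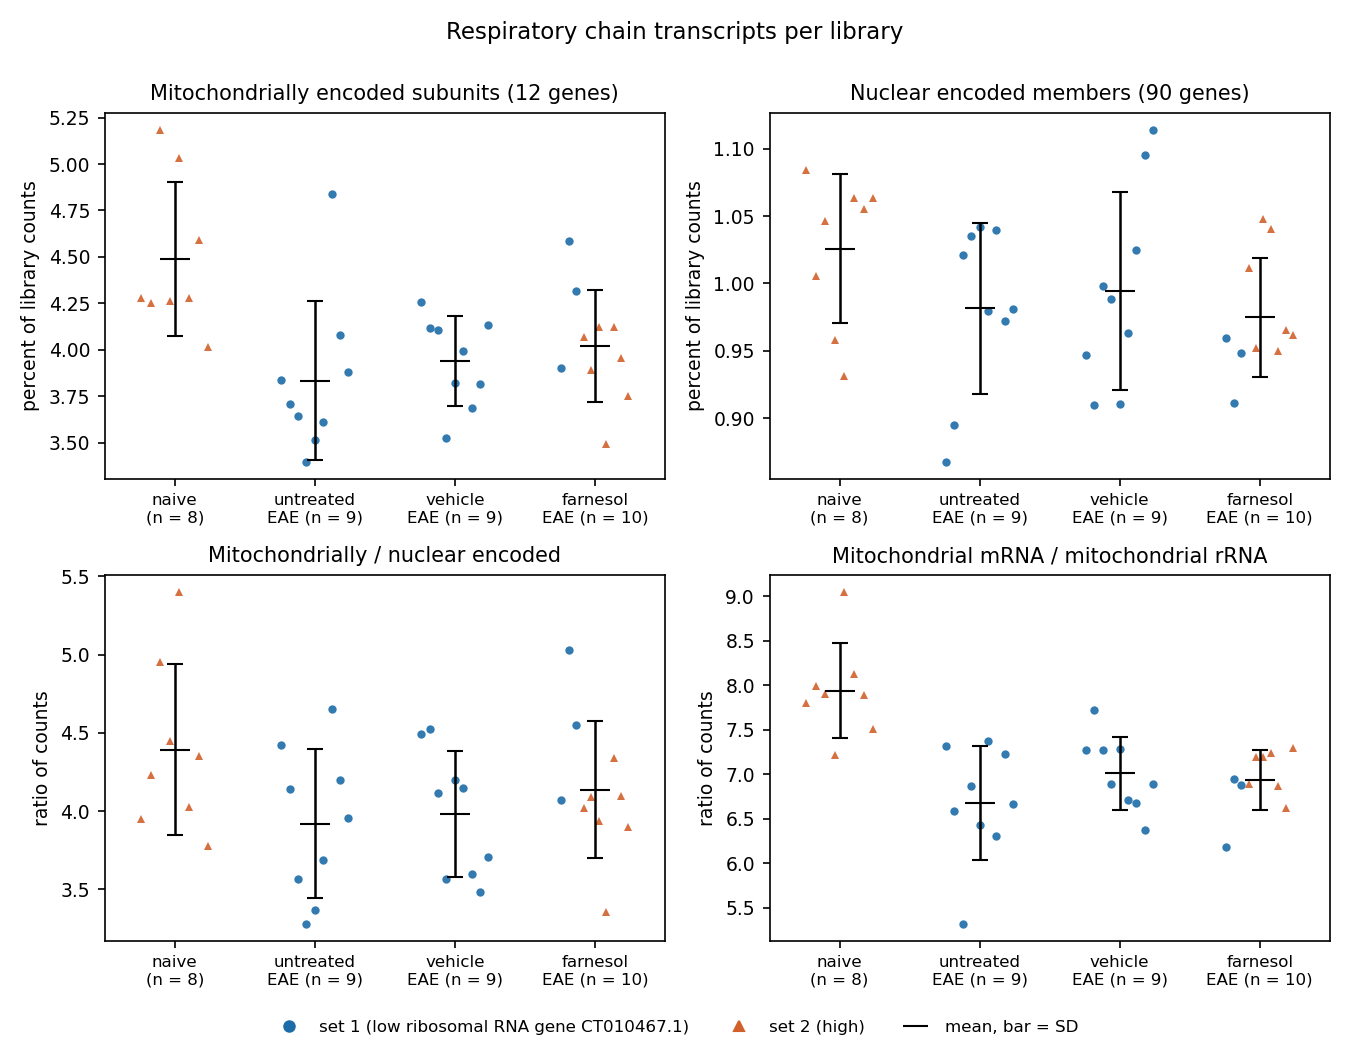
Percent of library counts in the mitochondrially (upper left) and nuclear encoded genes (upper right), the ratio of these counts (lower left) and the ratio of mitochondrially encoded mRNA to mitochondrial rRNA (lower right), 1 point per library; circles are set 1, triangles set 2, and bars show the mean and SD. The nuclear values in the upper right and lower left cover 82 genes without the assembly factors, although the panel title gives 90 genes. The mRNA in the lower right is that of the 7 mitochondrially encoded genes without a whole nuclear copy. Axes do not start at 0. The naive group is highest on average in each panel, at 4.49% and 7.94 for the upper left and lower right.

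The nuclear count moved with the scaling and with the library set. TMM factors averaged 0.957 in naive and 1.00 to 1.02 in the EAE groups, and with library size alone the nuclear genes called numbered 9, 9 and 14 with medians of -0.05, -0.03 and -0.05, while the mitochondrially encoded genes called were 8, 6 and 4 with medians of -0.24, -0.21 and -0.15. With the library set as a term, 0 nuclear genes were called in untreated and vehicle mice (medians -0.03 and -0.03) and 20 in farnesol mice (median -0.10), and 2, 4 and 7 mitochondrially encoded genes were called (medians -0.42, -0.40 and -0.27). That fit called only 175 of all genes in untreated against naive, since no library of these groups shares a set with a naive one. Within set 2 alone, 7 farnesol against 8 naive libraries, 8 of 12 mitochondrially and 20 of 90 nuclear encoded genes fell and 0 rose. They include all 6 mitochondrially encoded and 17 of the 21 nuclear encoded genes that fell in each comparison. Those genes were picked by their fall in these same libraries, among others, so the overlap is no separate support. Without the libraries with Sbp above 1 CPM, the calls in untreated mice dropped to 4 mitochondrially and 12 nuclear encoded genes. Of the named genes, mt-Cytb, mt-Nd2, mt-Nd3, mt-Nd4, mt-Nd5, Cox4i1, Cox4i2, Cox6b1, Sdhc and Ndufa4l2 kept direction but lost that call. So did mt-Nd2, Cox6a1, Uqcrc2 and Sdhc in vehicle mice and Ndufaf7 in farnesol mice. Without the libraries low in cerebellar genes, Cox4i2 in untreated and Ndufaf7 in farnesol mice lost their call against naive.

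Differences among the EAE groups were few. Vehicle against untreated mice gave 0 members called in edgeR's test, where 0.0217% of all genes were called. At an unadjusted p below 0.05, 0 mitochondrially and 1 nuclear encoded gene were past the threshold, and DESeq2 and limma-voom called 0. The medians were 0.02 for mitochondrially and 0.00 for nuclear encoded genes. Farnesol against vehicle gave 1 member, mt-Atp6, higher by 0.62 ± 0.12 (adjusted p = 0.029), where 0.0922% of all genes were called. Farnesol against untreated gave 3, where 1.87% of all genes were called: mt-Atp6 higher by 0.81 ± 0.13 (adjusted p = 0.00021), mt-Co2 higher by 0.57 ± 0.14 (adjusted p = 0.018) and Cox5a lower by 0.15 ± 0.04 (adjusted p = 0.020). For Cox5a the farnesol libraries held 80.4 to 99.2 CPM and the untreated libraries 90.3 to 105.2, so the groups overlapped.

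Both mt-Atp6 and mt-Co2 belong to the genes whose reads cannot be told apart from a nuclear copy. With the copies' counts added, the farnesol against vehicle value of mt-Atp6 was 0.57 and did not pass, the farnesol against untreated value was 0.59 and passed, and mt-Co2 against untreated was 0.33 and did not pass. Inside set 1, where 3 farnesol libraries face 9 vehicle and 9 untreated ones, 0 members were called in either comparison. The mt-Atp6 difference was as large there as over all libraries, at 0.62 from vehicle and 0.82 from untreated mice, with 32.2, 40.7 and 42.6 CPM in the 3 farnesol libraries. Inside that set mt-Co2 differed from untreated mice by 0.48 and Cox5a by -0.23. The farnesol against vehicle call was also lost when any of vehicle replicates 2, 3, 4 and 5 or farnesol replicate 6 was left out, and farnesol replicate 9, at 65.6 CPM, was far above the other farnesol libraries for mt-Atp6. For abundant genes without a whole copy in the chromosome 1 stretch, the differences between farnesol and vehicle mice were small. They were 0.04 for mt-Co1 (2 SE interval -0.07 to 0.15), 0.07 for mt-Cytb (-0.06 to 0.20), 0.06 for mt-Nd1 (-0.07 to 0.18) and -0.01 for Atp5a1 (-0.08 to 0.06).

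Other genes of mitochondrial energy metabolism, from lists drawn up with earlier results of these data known, gave the members a setting. Beside their counts, 11.3%, 15.2% and 16.3% of all genes tested fell and 13.6%, 16.3% and 17.9% rose. Of 19 citric acid cycle genes, 9 fell in untreated, 10 in vehicle and 10 in farnesol mice and 0, 0 and 1 rose. Those that fell include Cs, citrate synthase, by 0.21, 0.21 and 0.25, and Mdh2, malate dehydrogenase, by 0.19, 0.25 and 0.28. Of 17 glycolysis genes, 12, 12 and 14 fell and 1 rose, with Pgk1 lower by 0.18, 0.22 and 0.21 and Eno1 by 0.19, 0.25 and 0.31. Of 23 genes of mitochondrial membranes and import, 12, 13 and 17 fell and 2 rose, including the outer membrane channel Vdac1, by 0.18, 0.18 and 0.17, and Mfn2, which fuses outer membranes, by 0.21, 0.25 and 0.23.

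Of 77 mitochondrial ribosomal protein genes, 8, 6 and 11 fell (10.4%, 7.79% and 14.3%, beside 11.3%, 15.2% and 16.3% of all genes) and 3, 2 and 3 rose. Of 33 genes of mitochondrial gene expression, 1, 1 and 2 fell and 7, 7 and 6 rose, where 13.6%, 16.3% and 17.9% of all genes rose, and nothing is read from the list's count. Those that rose include Ssbp1, which coats single-stranded mitochondrial DNA, by 0.44, 0.47 and 0.43, Mterf3, a factor that binds mitochondrial DNA, by 0.35, 0.44 and 0.45, and Pnpt1, an RNase that degrades mitochondrial RNA, by 0.40, 0.48 and 0.52. Polrmt, the mitochondrial RNA polymerase, rose by 0.16 in untreated mice, with 0.08 and 0.05 in the others. Tfam, which packages mitochondrial DNA, was at -0.05, 0.04 and 0.03, and Lrpprc, which stabilises mitochondrial mRNAs, at -0.06, -0.06 and -0.03, and neither passed.

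Of 14 nuclear regulators of respiratory genes, 1 fell in each comparison and 1, 3 and 2 rose. The coactivator Ppargc1a fell by 0.16 in untreated mice (64.8 ± 3.9 CPM in naive) and was at -0.09 in both other groups. Nrf1, Gabpa and Esrra, transcription factors known to bind promoters of respiratory genes, passed in none, between -0.07 and 0.11. Of 20 electron carriers and their synthesis genes, 2, 3 and 6 fell and 1 rose, with Gpd2, which feeds electrons from glycerol phosphate, lower by 0.28, 0.28 and 0.30. Of 41 assembly factors named outside the prefixes, 2, 6 and 7 fell and 3, 2 and 2 rose, with Cox17, the copper chaperone of complex IV, higher by 0.57, 0.63 and 0.57. In the same comparisons 11.3%, 15.2% and 16.3% of all genes fell and 13.6%, 16.3% and 17.9% rose. Nothing is read from the counts of the regulator, carrier and assembly factor lists.

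**Figure D4:**
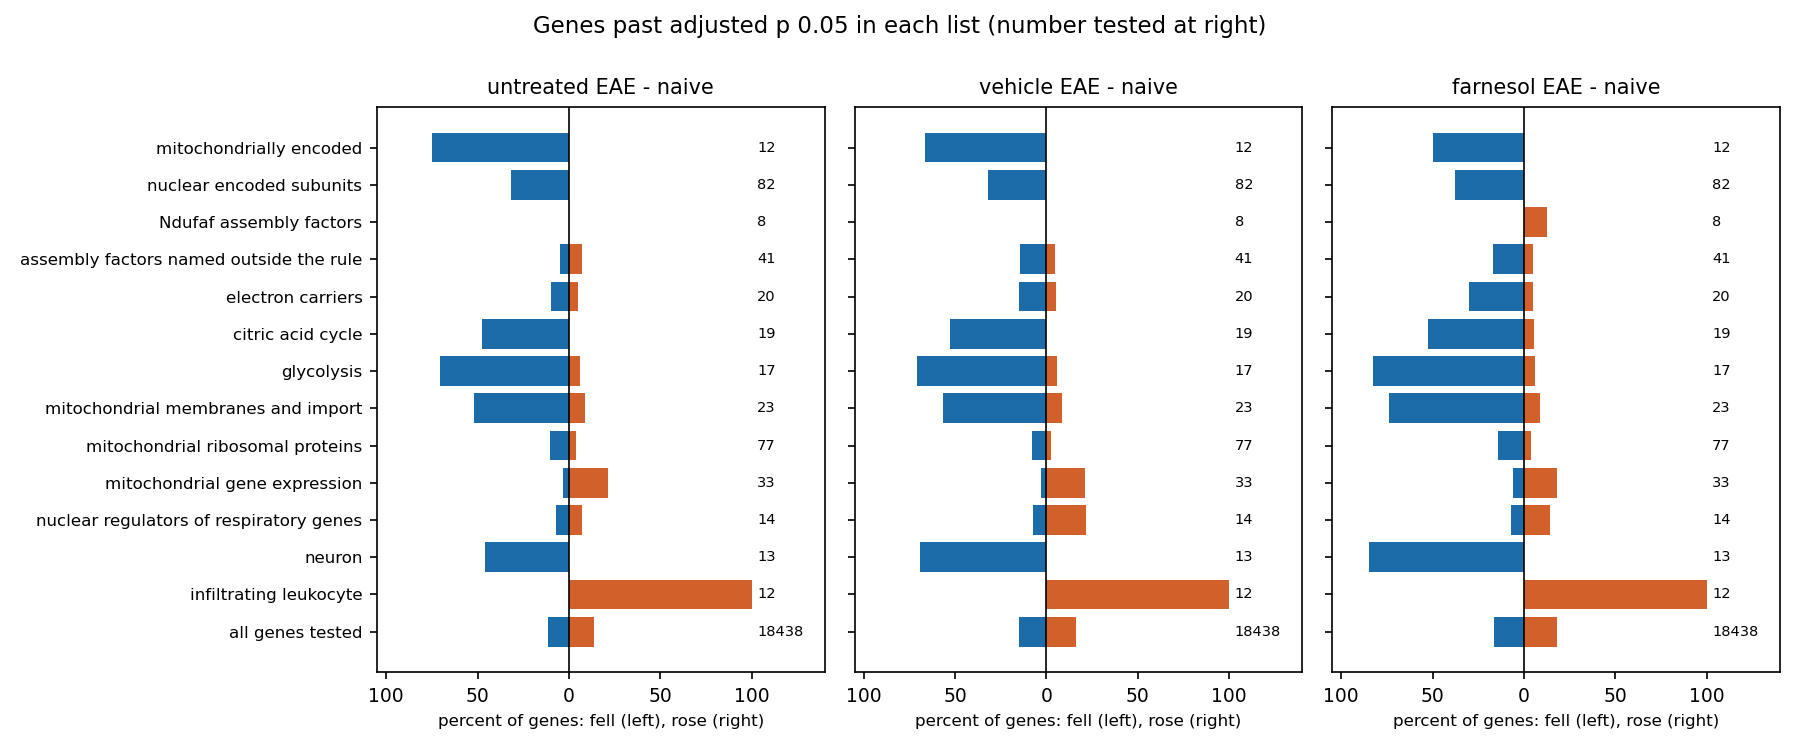
Percent of each list's genes called lower (blue, left of 0) and higher (orange, right) than naive in the 3 EAE groups, with the number of genes tested at the right of each bar; the bottom bar is all 18438 genes. Of the lists drawn, the mitochondrially encoded, citric acid cycle, glycolysis, membrane and neuron lists extend furthest left, and the infiltrating leukocyte list extends furthest right.

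Cell type markers moved with these changes, and their part in them was not tested. Over all genes tested, 11.3%, 15.2% and 16.3% fell and 13.6%, 16.3% and 17.9% rose, and marker counts near these shares are not read as a result. Of 13 neuron markers, 6, 9 and 11 fell, and their summed level was 8530 to 9187 CPM in naive, 7819 to 8796 in untreated, 7415 to 8380 in vehicle and 7531 to 8355 in farnesol libraries. All 12 infiltrating leukocyte markers rose in each comparison, from a sum of 18.6 to 24.8 CPM in naive to 98.7 to 599, 64.9 to 1388 and 85.2 to 856 CPM. Of 8 oligodendrocyte markers, 2 fell in each comparison, and of 8 astrocyte markers 3, 2 and 4 fell and 1 rose. Of 8 microglia markers, 4, 1 and 1 rose and 0, 1 and 0 fell. The 8 cerebellar granule cell markers did not pass in any comparison with naive. Of 9 pericyte and smooth muscle markers 3, 2 and 2 fell, of 7 endothelial markers 2 fell and 1 rose in each comparison, and of 6 choroid plexus markers 2, 1 and 1 fell. Of 7 skeletal muscle and brown fat genes 1, 0 and 0 rose. The 5 erythroid markers did not pass. No neuron or leukocyte marker was at 0 in all libraries.

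The promoters of the nuclear members were searched for letters bound by factors known to drive respiratory genes. RefSeq promoters (GRCm38.p6, 250 bases before to 50 after the start) matched 74 of the 90 genes by symbol. Searched on both strands, the NRF1 letters GCGCATGC, which overlap on the 2 strands, stood in 12 of 74 (16.2%, against 3.05% of all 27025 genes of the table), the YY1 letters AAGATGGC in 11 (14.9% against 3.19%), the letters AAGGTCA of estrogen related receptors in 8 (10.8% against 5.38%) and the ETS letters CCGGAAGT, bound by GABPA, in 5 (6.76% against 4.31%). At least 1 of the 4 stood in 33 (44.6% against 14.9%). A match is a description of letters, not a measured site. Of 12 genes with the NRF1 letters 1, 3 and 3 fell, and of 5 with the ETS letters 2, 2 and 1. Of 11 with the YY1 letters and of 8 with the receptor letters, 1 fell in each comparison. Over all genes tested 11.3%, 15.2% and 16.3% fell, and nothing is read from counts this small. The genes shown were picked because they fell and do not stand for the rest. For each motif 1 gene is shown, with the motif in capitals on whichever strand it was found: Sdhb with NRF1 (chr4:140961021-140961320, plus strand), Ndufa9 with YY1 (chr6:126849095-126849394, minus strand), Atp5h, a stalk subunit of ATP synthase, with ETS (chr11:115419870-115420169, minus strand) and Atp5g3, a subunit of its membrane ring, with the receptor letters (chr2:73911277-73911576, minus strand). Atp5h and Atp5g3 lie outside the rule for named genes and were chosen after their values were seen.
Sdhb: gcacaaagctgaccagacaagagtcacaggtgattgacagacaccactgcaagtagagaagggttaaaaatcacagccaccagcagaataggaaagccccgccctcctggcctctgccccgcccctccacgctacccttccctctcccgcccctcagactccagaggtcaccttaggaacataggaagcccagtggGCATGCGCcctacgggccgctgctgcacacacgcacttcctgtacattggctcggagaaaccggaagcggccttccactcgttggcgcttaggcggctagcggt
Ndufa9: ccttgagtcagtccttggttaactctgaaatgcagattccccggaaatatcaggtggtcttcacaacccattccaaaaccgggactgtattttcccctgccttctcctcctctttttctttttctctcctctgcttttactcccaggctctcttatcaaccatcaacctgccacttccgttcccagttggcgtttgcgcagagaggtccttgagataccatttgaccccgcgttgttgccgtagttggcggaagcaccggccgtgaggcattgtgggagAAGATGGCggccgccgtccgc
Atp5h: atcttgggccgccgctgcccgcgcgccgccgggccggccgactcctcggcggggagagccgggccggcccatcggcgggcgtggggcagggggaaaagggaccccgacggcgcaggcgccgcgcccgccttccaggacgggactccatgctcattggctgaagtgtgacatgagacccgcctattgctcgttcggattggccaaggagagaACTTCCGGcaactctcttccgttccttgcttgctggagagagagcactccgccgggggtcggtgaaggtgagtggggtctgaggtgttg
Atp5g3: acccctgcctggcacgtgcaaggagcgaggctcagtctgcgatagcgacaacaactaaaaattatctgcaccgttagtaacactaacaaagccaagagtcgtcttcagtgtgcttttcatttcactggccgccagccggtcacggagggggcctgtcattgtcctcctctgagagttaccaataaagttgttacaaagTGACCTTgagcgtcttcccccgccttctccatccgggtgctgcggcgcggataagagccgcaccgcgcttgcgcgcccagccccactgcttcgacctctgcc

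Genes with and without these letters had similar medians, and no test of the difference was run. Of the 33 with any motif, 5, 7 and 6 fell, with medians of -0.11, -0.09 and -0.11, and of the 41 without, 11, 12 and 18 fell, with medians of -0.11, -0.12 and -0.14. Atp5h had 176 ± 9.9 CPM in naive and 158 ± 14.9, 157 ± 12.2 and 154 ± 6.3 in the EAE groups, falls of 0.16, 0.16 and 0.19. Atp5g3 had 202 ± 15 CPM in naive and 179 ± 12, 178 ± 19 and 180 ± 17, falls of 0.17, 0.19 and 0.17. No sequence is given for genes without a match in the table.

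Over the 36 libraries, the genes most like the mean log2 level of the mitochondrially encoded members were the nuclear copies Gm10925 (Pearson r = 0.80), Gm28437 (0.77) and Gm10222 (0.77). The genes most like the mean of the nuclear members were Smdt1, a regulator of the mitochondrial calcium channel (0.91), Cops9, a signalosome subunit (0.89), and Romo1, an inner membrane protein (0.88). These correlations pool the groups and share library depth and composition, and they are descriptions. The 3 copies match mt-Atp6, mt-Co3 and mt-Nd4l without a mismatch, and these genes are part of the mean. Their likeness may thus come in part from reads that cannot be told apart.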

How the data were processed

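RNA from whole mouse brain was sequenced in 36 libraries. The authors deposited 1 table of raw read counts per gene, with no normalization in it. Reads were mapped with STAR 2.5 to mm10, per the submitters' processing notes, and the labels' protocols also mention Kallisto. The sources used here do not state the counter, annotation release, strand use or handling of reads with several matches. Gene symbols and positions came from GENCODE M21 (GRCm38) by gene identifier, which named 54495 of 54532 identifiers, holding 99.99% of counts.

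The members and the gene lists were chosen with earlier results of these data known. Genes passing edgeR's filterByExpr (minimum count 10, minimum total 15; 18438 genes) were TMM-scaled and fitted in 1 quasi-likelihood model with a mean for each of the 4 groups (edgeR 4.0.16, R 4.3.3), and p-values were adjusted by Benjamini-Hochberg over all genes for each of 6 comparisons. The method was tested on simulated data. Levels are TMM-scaled CPM, while shares and ratios use counts as deposited. Named nuclear genes are up to 6 per comparison and direction with the smallest p among those called, the isoform genes of complex IV with Ndufa4 and its relative, and complex II, and all mitochondrially encoded members are named. From each other list up to 4 genes with the smallest p in untreated mice could be named, with Ppargc1a, Tfam, Nrf1, Gabpa, Esrra, Polrmt and Lrpprc. Likeness used log2(CPM + 0.5). The rRNAs mt-Rnr1 and mt-Rnr2 were added after values were seen. Copies were aligned to their genes with Biopython 1.88. Alternatives used DESeq2 1.42.0, limma 3.58.1 and sva 3.50.0. The labels do not say that libraries of a group came from separate mice, so p-values measure the spread between these libraries, which may be in part technical. At 14705992 to 24211092 counts per library, counting error is small for the abundant mitochondrially encoded genes and larger for those at a few CPM.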

Additional observations from a re-analysis of the deposited data

Results flagged for a closer look

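Single libraries stood far from the rest of their group in 24 of 176 groups of values examined (12 mitochondrially encoded genes, 27 named nuclear genes and 5 sums or ratios, in 4 groups each). Chance gives about 1 in 20 groups, and genes of a library share its scaling. Among the genes with a nuclear copy, mt-Co3 reached 139 CPM in naive replicate 3 (next highest 40.2), 87.0 in vehicle replicate 3 (next 42.4) and 82.9 in farnesol replicate 9 (next 48.9). Farnesol replicate 9 was also highest for mt-Co2, at 73.1 CPM (next 41.7), and for mt-Atp6, at 65.6 CPM (next 42.6). Untreated replicate 8 held 41.4 CPM of mt-Co2, naive replicate 3 held 5.01 CPM of mt-Nd3 and vehicle replicate 4 held 4.28 CPM of mt-Nd3. Among the other mitochondrially encoded genes, untreated replicate 7 was highest for mt-Nd4 (4503 CPM), mt-Nd2 (4511 CPM) and the summed share (4.84% of counts, next 4.08%), and farnesol replicate 2 for mt-Nd5 (5087 CPM) and mt-Nd4 (4197 CPM).

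Among nuclear encoded genes, naive replicate 5 was lowest for Cox7a2 (71.9 CPM), Cox8a (253 CPM) and Ndufa4 (136 CPM), and untreated replicate 1 for Ndufa4 (120 CPM) and Sdhd (58.4 CPM). Atp5b was lowest in naive replicate 4 (1117 CPM) and highest among vehicle mice in replicate 9 (1231 CPM), which was also highest for Ndufa10 (142 CPM). Cox4i2 reached 4.28 CPM in naive replicate 3, Cox6a2 5.36 CPM in farnesol replicate 7 and Cox7b 106.2 CPM in farnesol replicate 6.

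The difference from naive itself differed between EAE groups for 3 members by edgeR's test. For mt-Atp6 farnesol exceeded vehicle by 0.62 and untreated by 0.81 (log2), for mt-Co2 farnesol exceeded untreated by 0.57, and for Cox5a the farnesol value was -0.15 relative to untreated. Every mt-Atp6 farnesol library lay above every untreated library, while the farnesol and vehicle ranges overlapped.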

How the results depend on the processing

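Counts of members called in the comparisons of untreated, vehicle and farnesol mice with naive were, for mitochondrially encoded genes, 9, 8 and 6. The library set as a term gave 2 and 4 for untreated and vehicle mice, and leaving out libraries with Sbp gave 4 for untreated mice. Nuclear encoded counts of 26, 26 and 32 became 9, 9 and 14 with library size scaling without TMM, an alternative added after the data were seen, and 0, 0 and 20 with the library set as a term. They were 20 in farnesol mice inside set 2, 14 and 14 in untreated and vehicle mice with no count filter, 12 and 13 without libraries with Sbp, and 40 in vehicle mice in limma-voom. Over all genes, the set term called 175, 684 and 4840. Farnesol against vehicle, 1 mitochondrially encoded gene, became 0 in a fit of only those groups, with the set term, inside set 1, without libraries low in cerebellar genes, without libraries with Sbp and with the copies' counts added. Farnesol against untreated, 2 such genes, became 1 in a fit of only those groups, with the set term, without libraries with Sbp and with the copies' counts added, and 0 inside set 1. Its 1 nuclear gene became 0 in a fit of only those groups, with the replicate block, inside set 1 and without libraries with Sbp. Leaving out 1 library gave 0 to 1 mitochondrially encoded genes for farnesol against vehicle, 2 to 3 for farnesol against untreated and 1 to 2 nuclear genes for farnesol against untreated (2 without farnesol replicate 7). For the comparisons with naive it gave 9 to 11, 8 to 9 and 5 to 7 mitochondrially and 20 to 30, 20 to 33 and 25 to 41 nuclear encoded genes. Vehicle against untreated stayed at 0 under every setting run. Settings that moved no count by over 1.5 times were RLE scaling, scaling without mitochondrial and ribosomal RNA genes, DESeq2, minimum count 50, 1 surrogate variable, a mean of at least 5 CPM and leaving out the Ndufaf genes. Of 933 values of called named genes under other settings, 817 kept direction and call, 115 kept direction only and 1 reversed (mt-Nd3 in untreated mice, 0.042 with the copies added). Median log2 differences of both groups of genes moved by less than the spread between libraries under every setting. That spread is an SD of 0.20 for the mitochondrially and 0.10 for the nuclear encoded genes. The latter is close to the size of the nuclear medians against naive. A nuclear median could thus lose most of its size, as with the library set as a term, and still count as unmoved. No value inside a set exists for untreated or vehicle against naive. Where no construction of the setting shows it, the cause was not tested.

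The labels give no meaning to a shared replicate number. Same-numbered libraries correlated above 0.1 in 12 of 51 pairs (median r 0.02, 2000 genes). With the replicate block, mitochondrially encoded counts against naive were 9, 8 and 6 and nuclear counts 26, 29 and 33.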

Other observations

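The gene mt-Nd4l, which has a whole copy on chromosome 1, split the untreated and the vehicle libraries into levels with a gap between them. In untreated mice 5 libraries lay at 3.36 to 5.52 CPM and 4 (replicates 3, 5, 8 and 9) at 18.4 to 20.6 CPM. In vehicle mice 5 lay at 4.88 to 7.87 CPM and 4 (replicates 3, 5, 6 and 8) at 20.6 to 36.2 CPM. The farnesol libraries spanned 5.41 to 9.99 CPM and the naive libraries 7.28 to 13.1 CPM with no such gap. The gap was noticed after the values were seen, and these libraries were not compared as groups. The copy Gm10222 averaged 13.4 ± 2.0 CPM in untreated and 15.2 ± 3.5 CPM in vehicle libraries.

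Of 16 mitochondrial ribosomal and transfer RNA genes that passed the filter, 3, 4 and 5 fell in untreated, vehicle and farnesol mice against naive and 0 rose. These are 18.75%, 25% and 31.25%, beside 11.3%, 15.2% and 16.3% of all genes that fell. Among the transfer RNAs, mt-Tp fell by 0.29, 0.36 and 0.32 on the log2 scale from 80.4 ± 9.0 CPM in naive, and mt-Ty by 0.35, 0.40 and 0.42.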
